A study of Mus musculus with 19 samples.

Results

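The genes of the cytosolic ribosome were followed through pregnancy in mouse mammary tissue. Cytosolic ribosomal protein (RP) genes were taken as symbols that start with Rpl, Rps or Rplp, go on with a number and end with at most an a, x or l and a further digit, which leaves out symbols of pseudogenes. Of 24421 gene symbols in the counts, 83 matched this pattern, and the 81 of them that reached 10 reads, summed over all 19 libraries, were kept. The genes left out were Rpl10l, with 0 reads, and Rpl26, with 1 read. The members nearest to the limit were Rpl34 with 104 reads, Rpl30 with 110, Rpl39l with 124, Rps27 with 154 and Rpl3l with 528, whereas 76 members had at least 1000 reads. The members encode 32 proteins of the small (40S) subunit, 46 of the large (60S) subunit and the 3 proteins of the P stalk, counting paralogs of a protein separately.

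The study asked how enhancers of the casein locus act in mammary tissue, and total RNA-seq of ribosome-depleted RNA counted reads per gene. Wild-type (WT) tissue was collected at day 6 of pregnancy (p6, n = 3) and at day 18 (p18, n = 3), and tissue that lacks the casein super-enhancer (labelled Enhancer-delS1-4, ΔSE) at p6 (n = 4) and p18 (n = 4). A separately labelled set held a line with a deletion at Csn3 (delCsn3-PE, n = 2) and another with a deletion at Csn1s2b (delCsn1s2b-E, n = 3), both labelled p18 and without WT libraries of their own. All mice were C57BL/6 according to the labels, the deletions were germline CRISPR/Cas9 deletions, and the methods give an age of 8 to 12 weeks. The extraction notes of the separate set name WT tissue in lactation, so that the stage of these 5 libraries is uncertain. Each deletion is carried by every cell of the animal and is not limited to mammary epithelium. Bulk tissue was sampled, so that fewer cells of a type and less RNA per cell cannot be told apart.

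A ribosome holds 1 copy of most RPs, so that these genes are usually expressed together and at high level. Their mRNAs begin with a run of pyrimidines (C and T in DNA) called the 5′ terminal oligopyrimidine (TOP) motif, through which mTORC1 and the RNA-binding protein LARP1 control their translation and stability. In the mammary gland, alveolar cells that multiply in pregnancy and then make milk proteins carry a heavy load of protein synthesis.

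The sequence around the start of transcription was read for the 60 members with an entry among the RefSeq promoters of the GRCm38.p6 build. A run of at least 8 bases of C or T, on the sense strand within 30 bases on either side of the start, was present in 31 of them (51.7%), against 22.8% of 27025 promoters of all genes. The 30 bases centred on the start are shown for 4 members with such a run, which range in role from core proteins to a paralog and a stalk protein. Capitals mark the run.
Rps24, chr14:24490663-24490692, plus strand: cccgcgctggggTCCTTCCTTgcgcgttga
Rps26, chr10:128626492-128626521, minus strand: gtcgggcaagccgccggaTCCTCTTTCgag
Rpl22l1, chr3:28805493-28805522, plus strand: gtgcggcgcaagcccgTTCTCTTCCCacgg
Rplp2, chr7:141447636-141447665, plus strand: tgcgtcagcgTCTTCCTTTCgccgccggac
The same window held no run of this length in the following 4, of which Rpl41, Rpl10 and Rplp0 were abundant and Rpl3l was near the limit of detection.
Rpl41, chr10:128549154-128549183, minus strand: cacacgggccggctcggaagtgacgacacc
Rpl10, chrX:74270801-74270830, plus strand: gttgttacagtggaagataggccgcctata
Rplp0, chr5:115559452-115559481, plus strand: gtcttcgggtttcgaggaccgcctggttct
Rpl3l, chr17:24727811-24727840, plus strand: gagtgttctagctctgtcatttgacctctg
The motif CCGGAAG, searched on both strands in the 300 bases of the promoter, was found in 23 of the 60 members (38.3%) against 9.12% of all promoters. TATAAA, searched on the sense strand from 60 bases before to 10 after the start, was found in 2 (3.33%) against 3.36%. The annotated start can differ from the start used in this tissue, so that a window without a run says only that these letters were not in it.

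Reads in genes ranged from 12335272 to 30329601 per library. The rRNA precursor Rn45s took 21.7 to 42.9% of them in WT and ΔSE libraries but 0.0765 to 0.924% in the delCsn3-PE and delCsn1s2b-E libraries, and the sets were scaled and tested apart. Within each set the targeted gene followed the labels. In CPM scaled by TMM factors (normalized CPM), Csn3 was 5065 to 6466 in WT at p18 and 49.3 to 143 in ΔSE at p18. In the separate set Csn3 was 301 and 1448 in delCsn3-PE and 14325 to 21966 in delCsn1s2b-E. Csn1s2b was 29.98 to 54.5 in delCsn1s2b-E against 133 and 245 in delCsn3-PE. In WT at p18, scaled apart, Csn1s2b was 41.8 to 215, which overlaps delCsn1s2b-E, so that a loss against WT was not shown. The 10 luminal epithelial markers and the 10 adipocyte markers were detected in every library, and the lymphocyte markers summed to 4.38 to 12.3 normalized CPM. Skeletal muscle markers differed widely within groups, as given beside the results they move with.

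RP transcripts made up a small and variable share of the reads. In WT at p6 the 81 members summed to 0.669, 1.25 and 1.70% of the reads in genes, and in WT at p18 to 1.89, 1.84 and 2.20%. In ΔSE they summed to 1.46, 1.34, 0.966 and 1.61% at p6 and to 1.18, 1.17, 1.46 and 1.55% at p18. The WT libraries at p18 were thus above every library at p6 and above every ΔSE library, while the p6 and p18 values of ΔSE overlapped.

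The milk protein genes took a share that rose with stage, while that of Rn45s varied between libraries and overlapped between stages in each genotype. The sum was therefore also set against the reads outside both. It was 1.13, 1.85 and 2.42% in WT at p6 (1.80% ± 0.645, SD, n = 3) and 3.34, 3.15 and 3.54% in WT at p18 (3.34% ± 0.199, SD, n = 3). In ΔSE it was 2.11, 1.71, 1.52 and 2.14% at p6 (1.87% ± 0.304, SD, n = 4) and 2.12, 2.22, 2.40 and 2.62% at p18 (2.34% ± 0.220, SD, n = 4). On this scale the ratio of group means for p18 over p6 was 1.86 in WT, without overlap, and 1.25 in ΔSE, with overlap. At p18 the ratio of ΔSE to WT was 0.700 outside Rn45s and milk protein genes and 0.677 over all reads, without overlap on either scale. At p6 the same ratios were 1.04 and 1.11, and the libraries overlapped.

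**Figure D1:**
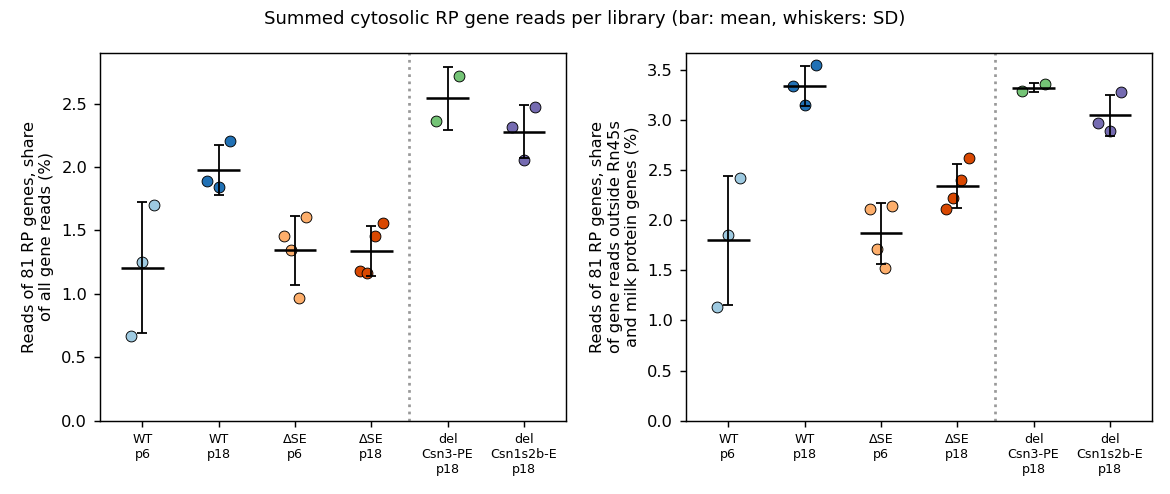
Summed reads of the 81 RP genes in each of the 19 libraries, as percent of all reads in genes and as percent of the reads outside Rn45s and the milk protein genes (vertical axes), by group; points are libraries, bars are group means and whiskers are SD, and a dotted line separates the label sets. The WT libraries at p18 lie above those at p6 and above the ΔSE libraries at p18 on both scales, whereas ΔSE at p6 and p18 overlap.

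The WT group at p6 was the most uneven. Its library 1 gave the lowest level among the 3 in 79 of 81 members and its library 3 the highest in 75. Library 1 also had the largest Rn45s share of this group (40.4%, against 32.3 and 29.2%). Whether the Rn45s share bears on the RP level was not tested. Within the ribosome the balance was steadier: small-subunit members took 40.7 to 43.9% of RP reads in WT and ΔSE libraries and 42.4 to 42.8% in the single-enhancer lines.

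Levels of single genes were compared only per kilobase of transcript, taking for each gene the annotated protein-coding transcript of median length. Lengths so taken ran from 345 bases in Rps27 to 3706 in Rps20 and 5130 in Rps15a. Values per kb and shares of shared sequence depend on this choice. In WT at p18 the 80 members with a transcript length had a median of 301 normalized CPM per kb (quartiles 169 and 535). The highest were Rpl13a with 1525, Rps24 with 1241 and Rps12 with 1216 normalized CPM per kb, all core components of the ribosome. The lowest were Rpl3l with 1.00, Rpl30 with 0.978 and Rpl39l with 0.387 normalized CPM per kb. Rpl3l and Rpl39l are tissue-restricted paralogs, but Rpl30 is a core large-subunit gene. Of the stretches of 50 bases in the Rpl30 transcript, 76.4% also occur in transcripts of other genes, and the median over members was 60.3%. Rpl34, with 1.26 normalized CPM per kb, shares 37.9%, while Rpl9, with 536.5, shares 93.3%. The reason for the low Rpl30 level was not tested. HTSeq by default leaves out reads that align to several places, so levels of members with many such stretches are uncertain (Rps27, 98.6%, Rpl5, 93.8%, Rpl10, 92.1%), whereas Rplp0 (41.8%), Rpl41 (35.4%), Rps27l (22.4%) and Rpl3l (0%) have fewer.

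WT tissue at p18 was compared with p6 to ask how RP genes behave over normal pregnancy. With edgeR's quasi-likelihood test and Benjamini-Hochberg adjustment over 17844 genes, 75 of 81 members rose and 0 fell, against 17.2% of all genes tested that rose and 12.4% that fell. The median log2 fold change of the members was 1.12 (quartiles 0.99 and 1.25), beside -0.05 over all genes. In 76 members the p18 libraries all exceeded the p6 libraries, which held for 22% of all genes. The 76 members with at least 1000 reads ranged from 0.30 to 1.83 on the log2 scale. Small-subunit members rose in 30 of 32 cases (median 1.16) and large-subunit members in 42 of 46 (median 1.06). The count of 75 did not change when any single library was left out, but scaling by library totals alone, which moved the median of all genes to -0.42, left 24, where 763 of all 17844 genes rose. A fit with 1 factor of unwanted variation called 0 members (median 0.72) and 6 genes higher and 1 lower of all 17844. The factor was drawn from all genes but the 5000 of smallest p in a test over all 4 groups. In WT 7192 genes had an unadjusted edgeR p under 0.05 for stage, so that some genes with such a p entered the factor. How far the factor holds stage itself was not tested. Luminal epithelial markers summed to 1071, 1288 and 1171 normalized CPM at p6 and to 1778, 2294 and 2296 at p18, and adipocyte markers to 1974 to 3256 at p6 and 1762 to 1817 at p18. The part of cell composition in the RP difference was not tested.

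**Figure D2:**
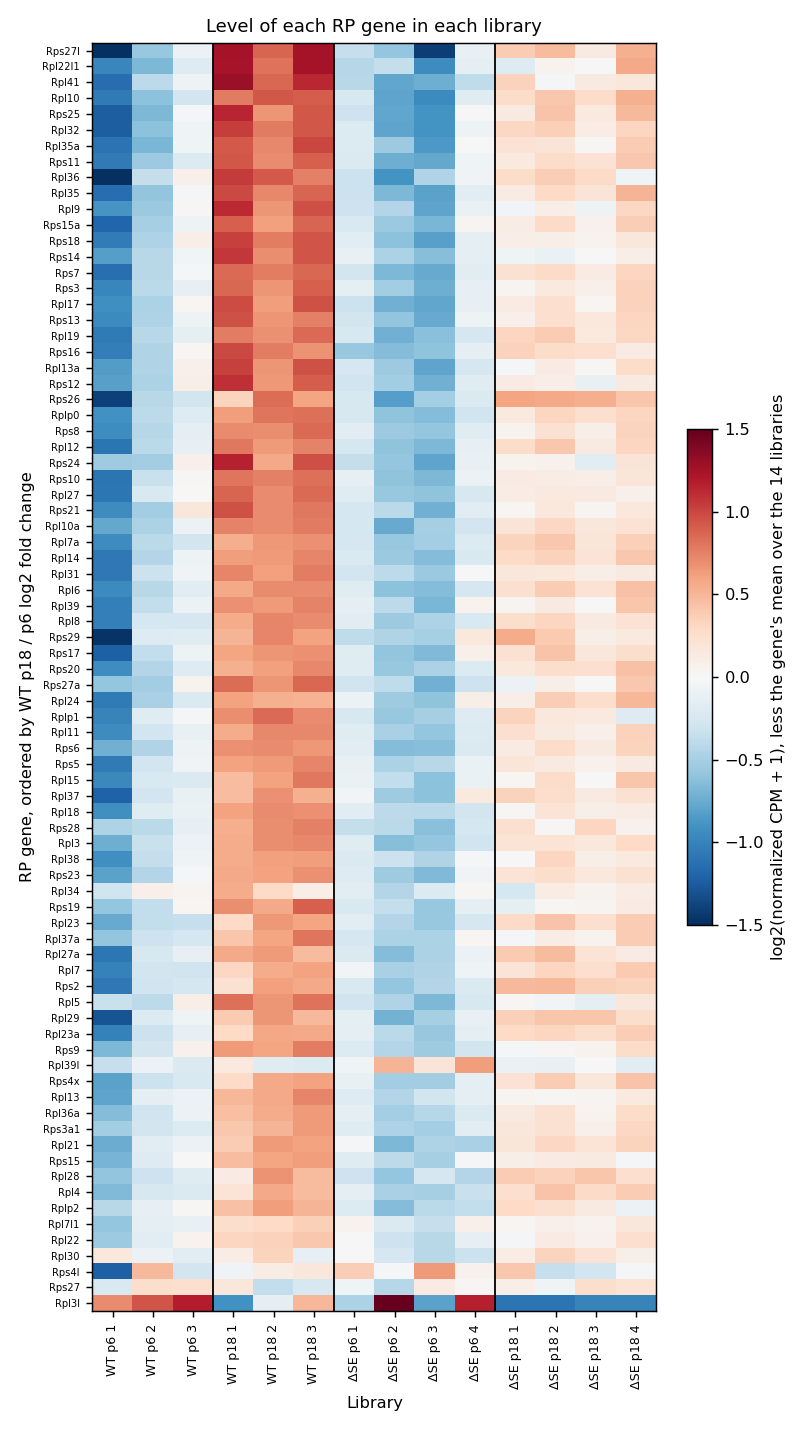
Level of 80 of the 81 RP genes (rows, ordered by the WT stage difference) in the 14 WT and ΔSE libraries (columns, by group), as log2 of normalized CPM plus 1 less the gene's mean over these libraries. Over all 81 members, every WT library at p18 is above every WT library at p6 in 76, every ΔSE library at p18 is below every WT library at p18 in 64, and WT p6 library 1 is the lowest of its group in 79.

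The largest rise among the called members was in Rps27l, a paralog of Rps27 known as a p53 target. Its normalized CPM was 8.32, 20.8 and 29.3 at p6 and 76.0, 58.0 and 76.0 at p18. The lowest value at p18 was far above the highest at p6. The log2 fold change was 1.83 ± 0.35 (SE, edgeR adjusted p = 0.000931). Rpl22l1, the paralog of Rpl22, followed with 11.7, 14.8 and 21.1 normalized CPM at p6 and 58.5, 43.2 and 59.0 at p18. All 3 libraries at p18 were above those at p6, and the log2 fold change was 1.75 ± 0.25 (SE, edgeR adjusted p = 8.73e-05).

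Core members followed closely. Rpl41, the smallest RP, rose from 60.6, 102 and 128 normalized CPM to 332, 246 and 295 (log2 fold change 1.59 ± 0.22, SE, edgeR adjusted p = 7.29e-05). Rpl10, which joins the large subunit late in its assembly, rose from 111, 152 and 194 to 402, 446 and 440 (1.496 ± 0.22, edgeR adjusted p = 0.000108). For both genes the p18 libraries lay clearly apart from the p6 libraries. Rps25, a small-subunit protein needed by some viral internal ribosome entry sites, went from 68.8, 102 and 159 to 360, 258 and 312 normalized CPM (1.49 ± 0.27, edgeR adjusted p = 0.000694). The 3 members with the highest level per kb rose to a similar degree, by log2 values of 1.25 for Rpl13a, 1.24 for Rps12 and 1.22 for Rps24.

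The P stalk is the part of the large subunit that recruits translation factors, with Rplp0 at its base and Rplp1 and Rplp2 as acidic partners. Rplp0 was 308, 441 and 507 normalized CPM at p6 and 896, 1014 and 1027 at p18, a log2 rise of 1.22 ± 0.18 (SE, edgeR adjusted p = 0.000145). Rplp1 rose by 1.10 ± 0.21 (edgeR adjusted p = 0.00106) and Rplp2 by 0.70 ± 0.15 (edgeR adjusted p = 0.00234), the latter from 124, 153 and 168 to 226, 257 and 237. All 3 stalk genes were called, and none overlapped between stages. Rpl5 and Rpl11, which bind 5S rRNA and with it restrain Mdm2, the inhibitor of p53, rose by 0.97 and 1.08, and Rpl23, a further Mdm2 partner, by 1.00. Rps27a, made as a fusion with ubiquitin, was 73.1, 76.0 and 114 at p6 and 197, 175 and 200 at p18 (1.12 ± 0.18, edgeR adjusted p = 0.000269).

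The 6 members that were not called in WT were those with few reads. Rpl34 had a log2 fold change of 1.01 (edgeR adjusted p = 0.243), Rpl39l 0.92 (0.479), Rpl30 0.47 (0.595), Rps4l 0.30 (0.622), Rps27 -0.69 and Rpl3l -1.56 (0.200). Rps4l, a paralog of Rps4x, and Rpl7l1, an RP-like gene of ribosome assembly, both have abundant relatives, and Rpl7l1 rose by 0.57 ± 0.14 (edgeR adjusted p = 0.00702). Of the 6 paralogs and RP-like genes among the members, 3 rose.

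In ΔSE tissue the members also rose from p6 to p18 under TMM scaling, although the median was -0.02 when only library totals were used. Under TMM, 59 of 81 members rose and 1 fell, against 17.3% and 18.3% of all genes. The median log2 fold change was 0.58 (quartiles 0.48 and 0.69) beside -0.07 over all genes, and 64 members had no overlap with p18 above, against 18.8% of all genes. Small-subunit members rose in 22 of 32 cases (median 0.55) and large-subunit members in 34 of 46 (median 0.61). Library totals alone moved the median of all genes in this comparison to -0.65, and then 0 members rose and 3 fell, beside 628 and 7969 of all 17844 genes. The median of the members minus that of all genes was 0.65 under TMM, 0.64 under library totals and 0.05 with 1 factor of unwanted variation. Leaving out ΔSE p6 library 3 lowered the count that rose to 38, beside 2770 of all 17766 genes. With 1 factor of unwanted variation 0 of all 17844 genes were called, the members included (median of the members 0.07). In ΔSE 8016 genes had an unadjusted edgeR p under 0.05 for stage, and 5000 genes were set aside. How far the factor holds stage here was not tested. In ΔSE, luminal epithelial markers summed to between 632 and 1129 normalized CPM at p6 and between 1958 and 2266 at p18. Adipocyte markers summed to between 2811 and 5174 at p6 and between 1595 and 2115 at p18. All 10 skeletal muscle markers fell without overlap (median log2 fold change -7.43), their sum being 57.4 to 3810 at p6 and 7.46 to 16.6 at p18. The part of these cell types in the RP difference was not tested.

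**Figure D3:**
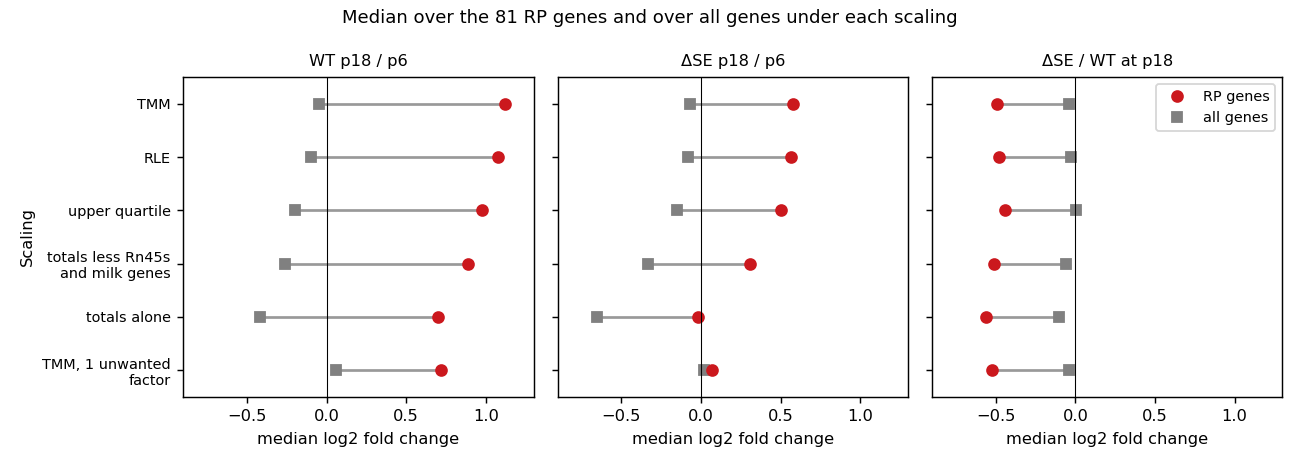
Median log2 fold change (horizontal axes) of the 81 RP genes (circles) and of all genes tested (squares) under each way of scaling the libraries and with 1 factor of unwanted variation (vertical axis), for p18 over p6 in WT, p18 over p6 in ΔSE, and ΔSE over WT at p18. Over the 5 scalings both medians shift together, so that the distance between them is 1.12 to 1.17 in WT and 0.64 to 0.65 in ΔSE, while the RP median in ΔSE drops to -0.02 under library totals alone. With 1 factor of unwanted variation the distance is 0.66 in WT and 0.05 in ΔSE.

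The largest rise in ΔSE was the log2 value of 1.499 ± 0.55 (SE, edgeR adjusted p = 0.0431) of Rpl30, which rests on levels of 0.0761 to 0.436 normalized CPM at p6 and 0.529 to 0.808 at p18. Rps26, a small-subunit protein at the mRNA exit channel, was 104, 69.1, 85.9 and 105 normalized CPM at p6 and 185, 182, 180 and 164 at p18. The groups were far apart, with a log2 fold change of 0.96 ± 0.20 (edgeR adjusted p = 0.00158). Rps27l rose by 0.95 ± 0.30 (edgeR adjusted p = 0.0203) and Rpl10 by 0.89 ± 0.18 (0.00148). The P stalk rose in all 3 members, by 0.70 for Rplp0, 0.49 for Rplp1 and 0.56 for Rplp2. Rpl5 rose by 0.41 (edgeR adjusted p = 0.0219), Rpl11 by 0.56, Rpl23 by 0.69 and Rps27a by 0.53. Rps14, a protein of the small-subunit platform, had 220, 171, 151 and 214 normalized CPM at p6 and 226, 222, 239 and 254 at p18, and its log2 fold change of 0.32 was not called (edgeR adjusted p = 0.142). Direction turned under library totals alone for Rplp1 (-0.11), Rplp2 (-0.04), Rpl5 (-0.18), Rpl11 (-0.03) and Rps27a (-0.06).

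Rpl3l, the paralog of Rpl3 that is known from striated muscle, was the member that fell, although its log2 fold change was 0.0041 with 1 factor of unwanted variation. In reads, it had 33, 63 and 83 in WT at p6, 2, 15 and 39 in WT at p18, 10, 153, 3 and 78 in ΔSE at p6, and 0, 0, 1 and 1 in ΔSE at p18. By summed reads and library scaling it was 88.7-fold higher in ΔSE at p6 than at p18 (95% exact interval 24.3 to 737, counting error only, 244 reads against 2), and edgeR gave an adjusted p of 0.00151. The 10 skeletal muscle markers summed to 57.4, 2899, 134 and 3810 normalized CPM in ΔSE at p6 and to 7.46, 8.08, 7.55 and 16.6 at p18, where 1 and 2 of the 10 were at 0 in libraries 1 and 2. In WT they summed to 1342, 2357 and 2414 at p6 and to 4.43, 1079 and 1606 at p18. Rpl3l and the marker sum were thus high and low in the same libraries of ΔSE at p6 and of WT at p18. In the set of single-enhancer lines, Rpl3l was highest in the delCsn1s2b-E library with the highest marker sum (22 reads, 790 normalized CPM). The part of muscle RNA in the Rpl3l difference was not tested beyond this.

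**Figure D4:**
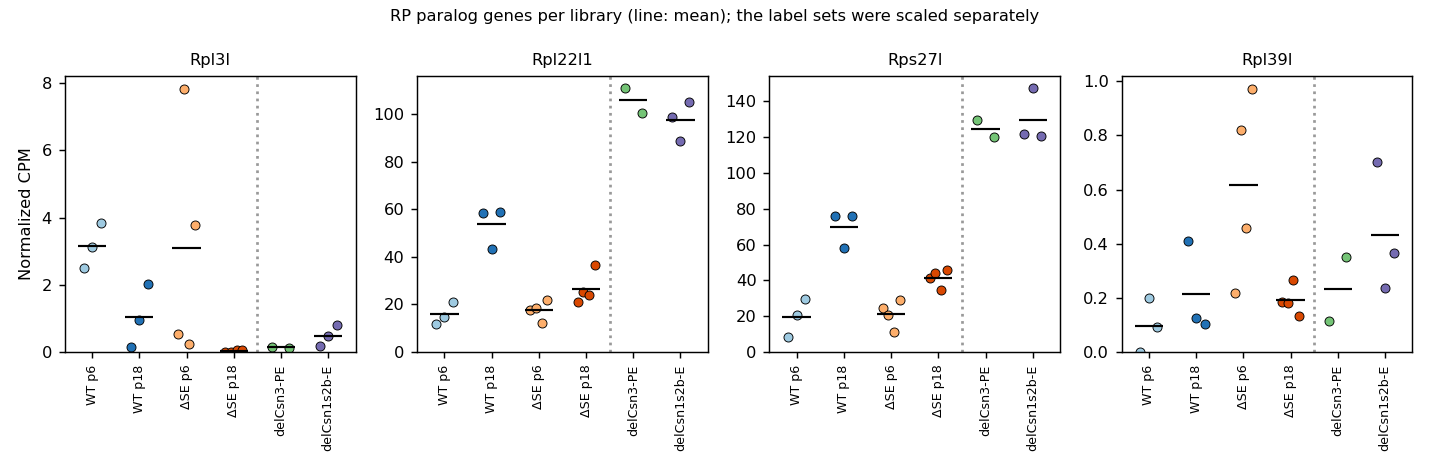
Normalized CPM (vertical axes, each from 0) of the paralogs Rpl3l, Rpl22l1, Rps27l and Rpl39l in each library by group; points are libraries, lines are group means, and the label sets to either side of the dotted line were scaled separately. For Rpl22l1 and Rps27l the 3 WT libraries at p18 are above every other WT and ΔSE library, whereas Rpl3l runs from 0.228 to 7.83 within ΔSE at p6.

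At p6 no RP gene passed the test between genotypes (0 of 81 in ΔSE against WT, edgeR), against 0.499% of all genes called higher and 0.527% called lower. At an unadjusted p under 0.05 there was 1 member, against 17% of all genes. DESeq2 called 0 members as well, with 3 lacking an adjusted p, beside 486 genes higher and 430 lower of all 17844. The median log2 fold change was 0.06, and 54 members were above 0, against 51% of all genes. The member with the smallest p was Rpl39l, a paralog of Rpl39 that is abundant in testis, with a log2 fold change of 2.48 ± 0.79 (SE, edgeR adjusted p = 0.124). Its levels were 0, 0.199 and 0.0922 normalized CPM in WT and 0.218, 0.819, 0.456 and 0.972 in ΔSE, all under 1. Rplp2 (-0.24, edgeR adjusted p = 0.411) and Rpl24 of the large subunit (0.30, adjusted p = 0.473) came next. Across the fits without each single library in turn, the median ranged from -0.14 to 0.25, so that its sign depended on the libraries used. Luminal epithelial markers were below 0 in 9 of 10 genes (median -0.38, 2 called lower). Adipocyte markers were above 0 in 10 of 10 (median 0.47, 0 called). The part of these cell types in the RP values at p6 was not tested.

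At p18, RP genes were lower in ΔSE than in WT in nearly every member, while few passed the test for single genes. The median log2 fold change was -0.49 (quartiles -0.66 and -0.32) beside -0.04 over all genes. It was below 0 in 79 of 81 members, against 55.6% of all genes, and in all 76 members with at least 1000 reads (-1.01 to -0.06). In 64 members every ΔSE library was below every WT library, which held for 9.8% of all genes. Small-subunit members had a median of -0.58 and large-subunit members of -0.45. Only 2 members, Rps14 and Rpl5, were called lower and 0 higher, against 0.213% and 0.101% of all genes. At an unadjusted p under 0.05 there were 55 members, against 12.3% of all genes in either direction.

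The count of calls at p18 depended strongly on the fit, while the median stayed between -0.56 and -0.44 under every way of scaling. A fit of only the 2 groups compared called 49 members lower, beside 567 of all 16547 genes, and DESeq2 called 23, beside 361 of all 17844. Leaving out WT p6 library 1 gave 23, beside 190 of all 17769 genes. That library is in neither group but enters the shared estimate of the spread. Leaving out WT p6 library 3 gave 6, beside 42 of all 17707 genes. Without a single ΔSE library at p6 there were 0 or 1 calls, beside 14 to 21 of all genes called lower. Without any 1 of the 7 libraries at p18 there were 0, beside 2 to 73 of all genes. The 10 muscle markers summed to 4.43 in WT p18 library 1 and to 7.46 to 16.6 in ΔSE at p18, but to 1079 and 1606 in WT p18 libraries 2 and 3. With the last 2 left out, which leaves 1 WT library at p18, the median was -0.46. Luminal epithelial markers summed to 1778, 2294 and 2296 normalized CPM in WT at p18 and to 1958 to 2266 in ΔSE, so that they overlapped. Adipocyte markers were 1762 to 1817 in WT and 1595 to 2115 in ΔSE and overlapped too. Rn45s took 29.7 to 33.4% of reads in WT and 35.7 to 42.9% in ΔSE at p18, without overlap, and its part in the RP difference was not tested.

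Rps14 had 494, 386 and 458 normalized CPM in WT at p18 and 226, 222, 239 and 254 in ΔSE. The highest ΔSE library was well below the lowest WT library, with a log2 fold change of -0.92 ± 0.17 (SE, edgeR adjusted p = 0.0345). Rpl5 had 299, 266 and 296 in WT and 170, 162, 153 and 188 in ΔSE (-0.77 ± 0.14, edgeR adjusted p = 0.0345). For both genes the groups did not overlap, but under the alternative settings the adjusted p ranged from 0.000135 to 0.168 for Rps14 and from 5.65e-05 to 0.188 for Rpl5. Rpl41, with 332, 246 and 295 in WT and 172, 132, 148 and 152 in ΔSE, came next and did not pass (-0.95 ± 0.20, edgeR adjusted p = 0.0528).

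Further members had large differences that did not pass the test. Rpl22l1 had the most negative value among members with at least 1000 reads, -1.01 ± 0.22 (SE, edgeR adjusted p = 0.0623), with 58.5, 43.2 and 59.0 normalized CPM in WT and 21.0, 25.1, 24.0 and 36.3 in ΔSE. The values were -0.87 for Rps24, -0.83 for Rps12, -0.76 for Rps27l (edgeR adjusted p = 0.322) and -0.68 for Rps27a. In the P stalk they were -0.49 for Rplp0, -0.63 for Rplp1 and -0.38 for Rplp2 (edgeR adjusted p = 0.205, 0.16 and 0.25). The Mdm2 partners differed among themselves in size, with -0.46 for Rpl11 and -0.18 for Rpl23 beside -0.77 for Rpl5. Rps26 had a value near 0 (-0.07). Rpl3l, with 56 reads over WT and 2 over ΔSE at p18, was -4.55 ± 1.45 (edgeR adjusted p = 0.179), and its levels followed the muscle markers as above.

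The difference between the stage effects of the genotypes was tested as an interaction. No member passed it (0 of 81, edgeR), against 0.0897% of all genes called higher and 0.0616% called lower. DESeq2 called 2 members lower, beside 312 of all 17844 genes. The median interaction was -0.56 on the log2 scale beside -0.06 over all genes, and 41 members had an unadjusted p under 0.05, against 16.6% of all genes. The stage difference was larger in WT than in ΔSE in 79 of 81 members, against 54.4% of all genes, and in all 76 members with at least 1000 reads, and the median ratio of the ΔSE value to the WT value was 0.511. Rps14 had the smallest p (-0.99 ± 0.25, SE, edgeR adjusted p = 0.0895), then Rpl22l1 (-1.15 ± 0.32, adjusted p = 0.114) and Rps19, the gene most often mutated in Diamond-Blackfan anaemia (-0.68 ± 0.21, adjusted p = 0.147). Without WT p6 library 1 the WT stage median was 0.91 in place of 1.12 and the interaction median -0.35, and over all single libraries left out the interaction median went no lower than -0.70. All 4 groups enter this term, so that it is not independent of the comparisons above.

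**Figure D5:**
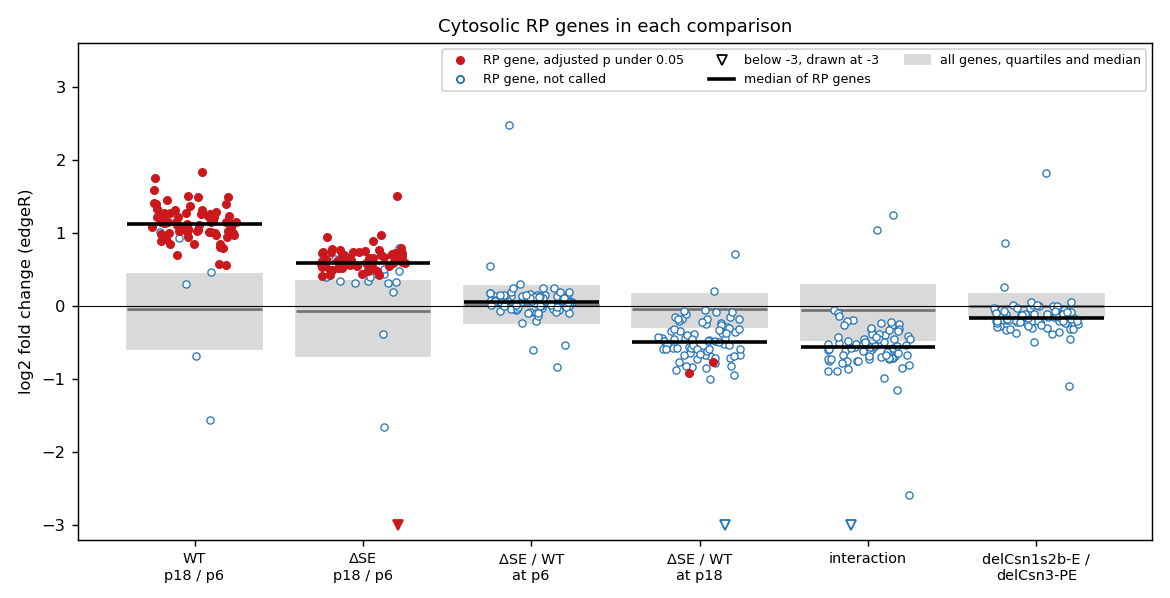
Log2 fold change of each RP gene (vertical axis) in each comparison (horizontal axis) under TMM scaling; filled points passed an adjusted p under 0.05, open points did not, triangles lie below -3 and are drawn there, black lines are RP medians, and grey boxes are the quartiles and median of all genes tested. The RP medians are 1.12, 0.58, 0.06, -0.49, -0.56 and -0.17 from left to right, that of ΔSE over its own p6 being -0.02 under library totals alone.

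The size of the difference varied between members. Across the 76 members with at least 1000 reads, the WT and ΔSE stage values had a Pearson correlation of 0.56 and a Spearman correlation of 0.36, and without the paralogs (72 members) 0.34 and 0.28. These describe genes counted in the same libraries. By the start sequences shown above, members with a pyrimidine run had a WT stage median of 1.14 (31 members) and those without 1.11 (29 members). At p18 the ΔSE against WT medians were -0.56 and -0.48. With and without CCGGAAG the WT stage medians were 1.14 and 1.03. Members with over 50% of their sequence windows shared with other genes (48 members) had a WT stage median of 1.11, and those with at most 50% (32 members) of 1.13.

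The single-enhancer lines were compared with each other only. RP reads were 2.37 and 2.72% of all reads in delCsn3-PE and 2.31, 2.05 and 2.47% in delCsn1s2b-E, with overlap, and outside Rn45s and milk protein genes 3.29 and 3.36% against 2.97, 2.89 and 3.28%. Of 79 members tested, without Rps27 and Rpl34 for lack of reads, 0 were called (edgeR), against 0% of 16635 genes called higher and 0.0541% called lower. At an unadjusted p under 0.05 there were 2 members, against 5.21% of all genes. DESeq2 called 0 members, beside 27 genes higher and 82 lower of all 16635. The median log2 fold change of delCsn1s2b-E over delCsn3-PE was -0.17, with 71 members below 0 against 49.7% of all genes. The median was -0.07 without delCsn3-PE library 1, -0.26 without delCsn3-PE library 2 and -0.10 without delCsn1s2b-E library 1. Groups did not overlap, with delCsn1s2b-E below, in 19 members, against 10.1% of all genes. Rps29 of the small subunit had 57.3 and 49.4 normalized CPM in delCsn3-PE and 40.1, 42.2 and 45.8 in delCsn1s2b-E (-0.32 ± 0.13, SE, edgeR adjusted p = 0.924). Rpl3l (1.81, adjusted p = 0.937) and Rplp2 (-0.45, adjusted p = 0.947) followed by size of p.

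Genes close to the ribosome that the symbol pattern does not take in were counted from fixed lists. In WT from p6 to p18 the 5 RP and ribosome-bound genes with other symbols all rose, where 17.2% of all genes did, and 3 of them rose under library totals alone. Among them were Rpl36al with a log2 fold change of 1.72 ± 0.22 (SE, edgeR adjusted p = 4e-05), Gnb2l1, the ribosomal scaffold RACK1, with 1.32, Fau, made as a fusion with a ubiquitin-like protein, with 0.99, and the laminin receptor Rpsa with 0.98. In ΔSE all 5 rose as well under TMM (median 0.62), whereas under library totals alone 0 did and Fau (-0.10) and Rpsa (-0.08) turned, and at p18 against WT 0 were called (median -0.54). Of 16 other TOP mRNAs, chiefly translation factors, 12 rose and 1 fell in WT (median 0.77). In ΔSE 14 rose and 1 fell (median 0.53), where 17.3% of all genes rose. Under library totals alone 0 rose and 1 fell in WT (median 0.39), and 0 rose and 2 fell in ΔSE (median -0.06). Of all 17844 genes, 763 rose and 3663 fell in WT under this scaling (median -0.42). In ΔSE 628 rose and 7969 fell (median -0.65). At p18 0 of the other TOP mRNAs were called between genotypes (median -0.22). In the interaction their median was -0.24 and that of the 5 genes with other symbols -0.55, with 0 called in either list. Among the TOP mRNAs the elongation factor subunit Eef1b2 rose by 1.00 and the initiation factor subunit Eif3e by 1.01 in WT. The elongation factor Eef2 rose by 0.86 in ΔSE.

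Of 44 ribosome biogenesis genes, which process rRNA and assemble the subunits, 13 rose and 2 fell in WT (median 0.30), and 26 rose and 0 fell in ΔSE (median 0.44). Under library totals alone 1 rose and 5 fell in WT (median -0.07), and 0 rose and 4 fell in ΔSE (median -0.15). Of all 17844 genes, 763 rose and 3663 fell in WT under this scaling (median -0.42). In ΔSE 628 rose and 7969 fell (median -0.65). Under TMM the interaction median of the biogenesis genes was 0.21, with 0 called, opposite in sign to those of the RP genes and the lists above. At p6 the biogenesis genes were below 0 in ΔSE against WT in 41 of 44 (median -0.21, 0 called), beside 8726 of all 17844 genes. Their interaction was not computed under library totals. Bop1, of the PeBoW complex, rose by 0.79 in WT and 0.91 in ΔSE. Of 20 genes of mTORC1, LARP1 and MYC, 6 rose in WT (median 0.16) and 8 in ΔSE (median 0.39), beside 17.2 and 17.3% of all genes. Under library totals alone 2 rose and 3 fell in WT (median -0.19), and 0 rose and 6 fell in ΔSE (median -0.21). Akt1, which acts upstream of mTORC1, rose by 1.34 and 0.93, and Deptor, an inhibitor of mTORC1, by 1.03 and 0.83. Larp1 rose in ΔSE by 0.72 ± 0.11 (SE, edgeR adjusted p = 0.00017), whereas its WT value of 0.34 did not pass (adjusted p = 0.062). Myc did not pass in either (-0.39 in WT, adjusted p = 0.242, and 0.53 in ΔSE, adjusted p = 0.0595). The biogenesis and mTORC1 lists had 0 calls between genotypes at p18, with medians of -0.01 and 0.01. The interaction median of the mTORC1 list was 0.12, with 0 called.

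The proteins of the mitochondrial ribosome, which are encoded apart from those of the cytosol, rose in 51 of 74 genes in WT (median 0.75) and in 23 of 74 in ΔSE (median 0.27), beside 17.2 and 17.3% of all genes. Under library totals alone 2 rose and 0 fell in WT (median 0.35), and 0 rose and 8 fell in ΔSE (median -0.33). Of all 17844 genes, 763 rose and 3663 fell in WT under this scaling (median -0.42). In ΔSE 628 rose and 7969 fell (median -0.65). Under totals less Rn45s and milk protein genes 25 of the mitochondrial genes rose in WT and 3 in ΔSE, beside 1648 and 1355 of all 17844 genes. At p18 the median of the mitochondrial genes for ΔSE against WT was -0.26, and 1 was called, Mrps6 of the small subunit (-0.90, edgeR adjusted p = 0.0345). The value was below 0 in 65 of 74, against 55.6% of all genes. In 34 every ΔSE library was below every WT library, against 9.8% of all genes. The interaction median was -0.37, with 0 called and 65 of 74 below 0, against 54.4% of all genes. Host genes of snoRNAs, several of which are TOP RNAs, rose in 3 of 8 cases in WT (median 0.39) and 5 of 8 in ΔSE (median 0.45). Under library totals alone 1 rose and 1 fell in WT (median 0.02), and 0 were called in ΔSE (median -0.15). Their interaction median was 0.10, with 0 called. Of 12 p53 targets, 0 rose and 6 fell in WT (median -0.51), and 1 rose and 5 fell in ΔSE (median -0.50), beside 12.4 and 18.3% of all genes that fell. Under library totals alone 7 fell in WT (median -0.88) and 9 in ΔSE (median -1.09), and 0 rose. Their interaction median was -0.08, with 0 called. Plk2, a kinase, fell by 1.12 and 0.98, and Phlda3, an inhibitor of Akt, by 1.11 and 1.92. Rps27l, named above as a p53 target, rose in both. Of 5 RP pseudogene symbols tested, 1 rose in WT (median 0.92), 1 rose and 1 fell in ΔSE, and their reads can stem from the parent genes.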

How the data were processed

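Total RNA of 19 mammary libraries was sequenced by the authors (stranded libraries after rRNA depletion, paired ends of 50 bases). The authors used Trimmomatic (version 0.36) for trimming, STAR (version 2.5.4a) for alignment to mm10 and HTSeq (version 0.9.1) for counting, and deposited raw counts per gene, the roles of the tools being taken from the methods. Their later normalization is not part of the deposited counts. In the single-enhancer set, entries that name no gene (no feature 13.2 to 20.9%, ambiguous 0.672 to 0.821%, not unique 8.57 to 9.62%) stayed out of library sizes.

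Counts of genes with at least 10 reads in total were tested with the functions glmQLFit and glmQLFTest of edgeR (version 4.0.16, under R 4.3.3) after TMM scaling, in a model of 4 groups over the 14 WT and ΔSE libraries and a model of 2 groups over the other 5. Calls have a Benjamini-Hochberg adjusted p under 0.05 over all genes tested, and standard errors were derived from the F statistic. The scripts were tested on simulated data. Replicates differed by more than sampling noise (chi-square per gene 4.19 to 126), and since their origin in separate animals is stated only by the methods, p-values measure the spread between these libraries. In ΔSE at p18, libraries 1 and 2 (4.19) and libraries 3 and 4 (7.72) were closer than the other pairs (21.9 to 25.6). The tests still took them as 4 separate libraries. The exact interval for Rpl3l covers counting error only, whereas the SD beside the summed shares is the spread between libraries.

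The members and lists were chosen with earlier results of these data known. The text names, per comparison, the 5 largest and 5 most negative called members (with fewer than 3 calls, also the 3 smallest p), all paralogs, P stalk and 5S or Mdm2-binding members, Rps27a, the 3 highest and 3 lowest per kb, and up to 4 called genes of each list. Rps27, Rpl34, Larp1 in WT, Myc and members repeated from another comparison were named after their values were seen. Shared sequence was counted in GENCODE transcripts of GRCm38, and promoters came from RefSeq (GRCm38.p6). Alternatives were other scalings and filters, DESeq2 (version 1.42.0), 1 factor of unwanted variation, fits of only the groups compared, a replicate block and each library left out. Some results that the rule for named genes takes in are not reported here.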

Additional observations from a re-analysis of the deposited data

Results flagged for a closer look

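Of 58 checks of 29 measures, the named RP genes and the summed RP levels in both ΔSE groups of 4 libraries, 2 found a library far from the other 3, where chance flags about 1 in 20 groups. Rps12 was 296.5 normalized CPM in ΔSE p18 library 3 and 344 to 353 in the other libraries of the group. Rps29 was 70.5 normalized CPM in ΔSE p6 library 4 and 44.5 to 48.4 in the others.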

How the results depend on the processing

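Library totals alone gave 24 members higher in WT at p18 against p6 (median 0.70), 0 higher and 3 lower in ΔSE (median -0.017), and 0 lower in ΔSE against WT at p18 (median -0.56). The same totals gave 763 of all 17844 genes higher in WT, 628 higher and 7969 lower in ΔSE, and 11 lower between genotypes at p18. Under them Rpl11 (-0.030), Rpl13a (-0.049), Rpl5 (-0.18), Rplp1 (-0.11), Rplp2 (-0.038), Rps12 (-0.12), Rps24 (-0.12) and Rps27a (-0.058) turned in ΔSE from p6 to p18. Library totals less Rn45s and milk protein genes gave 5 higher and 2 lower in ΔSE (median 0.31) and 0 lower at p18. In ΔSE 1355 of all 17844 genes were then higher and 4997 lower. At p18, 22 of all genes were lower in ΔSE than in WT. With 1 factor of unwanted variation, for which the 5000 genes of smallest p were set aside, 0 members were called in WT (median 0.72) and 0 in ΔSE in either direction (median 0.069). At p18, 5 members were lower in ΔSE than in WT, beside 89 of all 17844 genes. With this factor Rpl30 (-0.30), Rpl3l (0.0041), Rpl5 (-0.022), Rplp1 (-0.13), Rplp2 (-0.22), Rps12 (-0.14) and Rps24 (-0.058) turned in ΔSE from p6 to p18. The cause was not tested. At an unadjusted edgeR p under 0.05, 7192 genes differed by stage in WT and 8016 in ΔSE. Whether the factor holds stage itself was not tested. Lower calls in ΔSE against WT at p18, 2 in the report, were 6 without a filter on low counts, beside 78 of all 20097 genes. They were 49 with only the groups compared, beside 567 of all 16547 genes. DESeq2 gave 23 (3 members without an adjusted p), beside 361 of all 17844 genes. Without WT p18 libraries 2 and 3, a setting chosen after seeing the data, the median was -0.46. The fit of only the groups compared also gave 2 lower in ΔSE from p6 to p18, and DESeq2 gave 2 lower in the interaction.

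With each library left out in turn, higher calls stayed at 75 in WT (median 0.91 to 1.27) and were 38 to 74 in ΔSE (median 0.51 to 0.69), with 1 to 2 lower. Between genotypes 0 members were called at p6 (median -0.14 to 0.25). At p18, 0 to 23 members were lower (median -0.52 to -0.46), beside 2 to 190 of all genes. The interaction gave 0 calls (median -0.70 to -0.35), as did the single-enhancer lines (median -0.26 to -0.07). Same-numbered libraries did not deviate together (correlations -0.29 to 0.28), so that the numbers name but do not pair them. The fit blocked on replicate number (replicate block) called 75 higher in WT, 55 higher and 1 lower in ΔSE, 2 lower at p18, and 0 in the other comparisons.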
